A study of Mus musculus with 24 samples.

Results

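The 10 mature miRNAs described here are both arms of the miR-143, miR-145a, miR-199a, miR-199b and miR-214 hairpins, which are typical of smooth muscle-like and mesenchymal cells of the testis. They were chosen by name as a reading of somatic RNA in germ cell preparations, and are 10 of 1978 mature miRNAs in the table. Libraries of small RNA came from germ cells enriched for pachytene/diplotene spermatocytes (SP) or for round spermatids (RS), taken from mice that were wild type (Ago413+/+), heterozygous (Ago413+/-) or null (Ago413-/-), with 4 libraries in each of the 6 groups. All mice were C57BL/6J males aged 10 to 15 weeks, and the labels give no further allele or treatment. The Ago413 allele removes Ago1 completely and Ago3 and Ago4 in part, so that Ago2 is the Argonaute gene that the null mice keep whole. Each germ cell suspension was made from the testes of 2 to 5 mice and separated on a BSA gradient, and fractions were pooled only where purity was above 70%, which leaves room for other cells in every library, and the study's methods give RS a higher range of purity than SP. The counts hold miRNAs alone, so the loss of the Ago genes could not be checked in them.

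Peritubular myoid cells wrap the seminiferous tubule in a contractile sheath outside the germ cells and share much of their gene expression with smooth muscle. miR-143 and miR-145 are made together and are abundant in smooth muscle and fibroblasts, where they are known for holding cells in the contractile state. miR-214, and miR-199a where it is made from the Mir199a-2 hairpin, come from one long transcript, Dnm3os, that is active in mesenchyme and fibroblasts. A mature miRNA is held by an Argonaute protein and pairs with its targets mainly through its seed, the bases from 2 to 8. The strand that is usually kept is the guide, and its partner on the hairpin is the passenger strand.

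The sequences of the miR-199 and miR-214 arms are shown first because they decide which rows of the table are separate measurements. This step took no miRNA from the chromosome that holds Mir143 and Mir145a, so the absence of their arms here says nothing about RefSeq. Sequences from RefSeq (GRCm38.p6) are printed for 5 of the 10 miRNAs, written 5′ to 3′ with the seed in capitals.
mmu-miR-199a-5p: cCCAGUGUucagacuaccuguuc
mmu-miR-199a-3p: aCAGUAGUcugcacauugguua
mmu-miR-199b-3p: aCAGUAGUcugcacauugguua
mmu-miR-214-5p: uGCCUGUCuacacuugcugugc
mmu-miR-214-3p: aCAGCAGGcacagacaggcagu

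mmu-miR-199a-3p and mmu-miR-199b-3p were identical in all 22 bases. The seeds of miR-199a-3p and miR-214-3p matched at 5 of 7 positions, and those of miR-214-3p and miR-214-5p at 0 of 7. Seeds were also searched among the other miRNAs with a sequence, again without the chromosome that holds Mir143 and Mir145a. The only one of the table that shared a whole seed with one of these 5 was miR-761, with the seed of miR-214-3p. It had 0 counts in every library. The 3 hairpins that can give the shared 3p sequence lie on different chromosomes of GRCm38.p6: Mir199a-1 at chr9:21496495-21496564 (minus strand, in an intron of Dnm2), Mir199a-2 at chr1:162217814-162217923 (plus strand) and Mir199b at chr2:32318460-32318569 (plus strand, in an intron of Dnm1). Dnm2 and Dnm1 are each read from the strand opposite to the hairpin. Mir199a-2 and Mir214 (chr1:162223368-162223477, plus strand) are 5444 bases apart, both in exons of Dnm3os and both within an intron of Dnm3, which is read from the other strand.

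The counts followed the sequences. The count of miR-199a-3p divided by that of miR-199b-3p ran from 1.99 to 2.01 (median 2.00) and lay within 1% of 2 in 24 of 24 libraries. The 2 rows are therefore one measurement, and how reads were divided among the hairpins is not given in the sources used here. The 5p arms of these hairpins have rows of their own, so miR-199b-5p is the only member that reads the Mir199b locus apart from the Mir199a loci.

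Levels are given as CPM, the count of a miRNA scaled to a common library size after TMM normalisation over the 24 libraries. Library totals ran from 182904 to 1072637 counts, the SP Ago413-/- libraries having the lowest group median (182904 to 369491), and a count of 0 allows up to 3 counts, or 2.74 to 20 CPM. The members took 0.245 to 1.29% of the counts of a library. Their summed share had medians of 0.653% in SP Ago413+/+, 0.418% in SP Ago413+/-, 0.4997% in SP Ago413-/-, 0.563% in RS Ago413+/+, 0.522% in RS Ago413+/- and 0.878% in RS Ago413-/-. The RS Ago413-/- libraries were close together (0.768 to 0.975%), and their range overlapped that of RS Ago413+/+ (0.312 to 1.29%), in which replicate 1 was highest. In these bulk libraries, more cells of a type and more RNA per cell cannot be told apart.

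The 3p arms of miR-199 and miR-143 made up most of this signal. Over all libraries, 38.9% of the members' counts were miR-199a-3p, 33.5% miR-143-3p and 19.4% miR-199b-3p. miR-199a-5p held 4.62%, and each of the other members held 1.03% or less. miR-143-5p had the fewest, 129 counts in all, and mmu-miR-145b, a relative of miR-145a that is no member, had 0. All of the 10 members were detected, 6 of them in 24 of 24 libraries, and miR-199b-5p was seen in the fewest, 18.

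**Figure D1:**
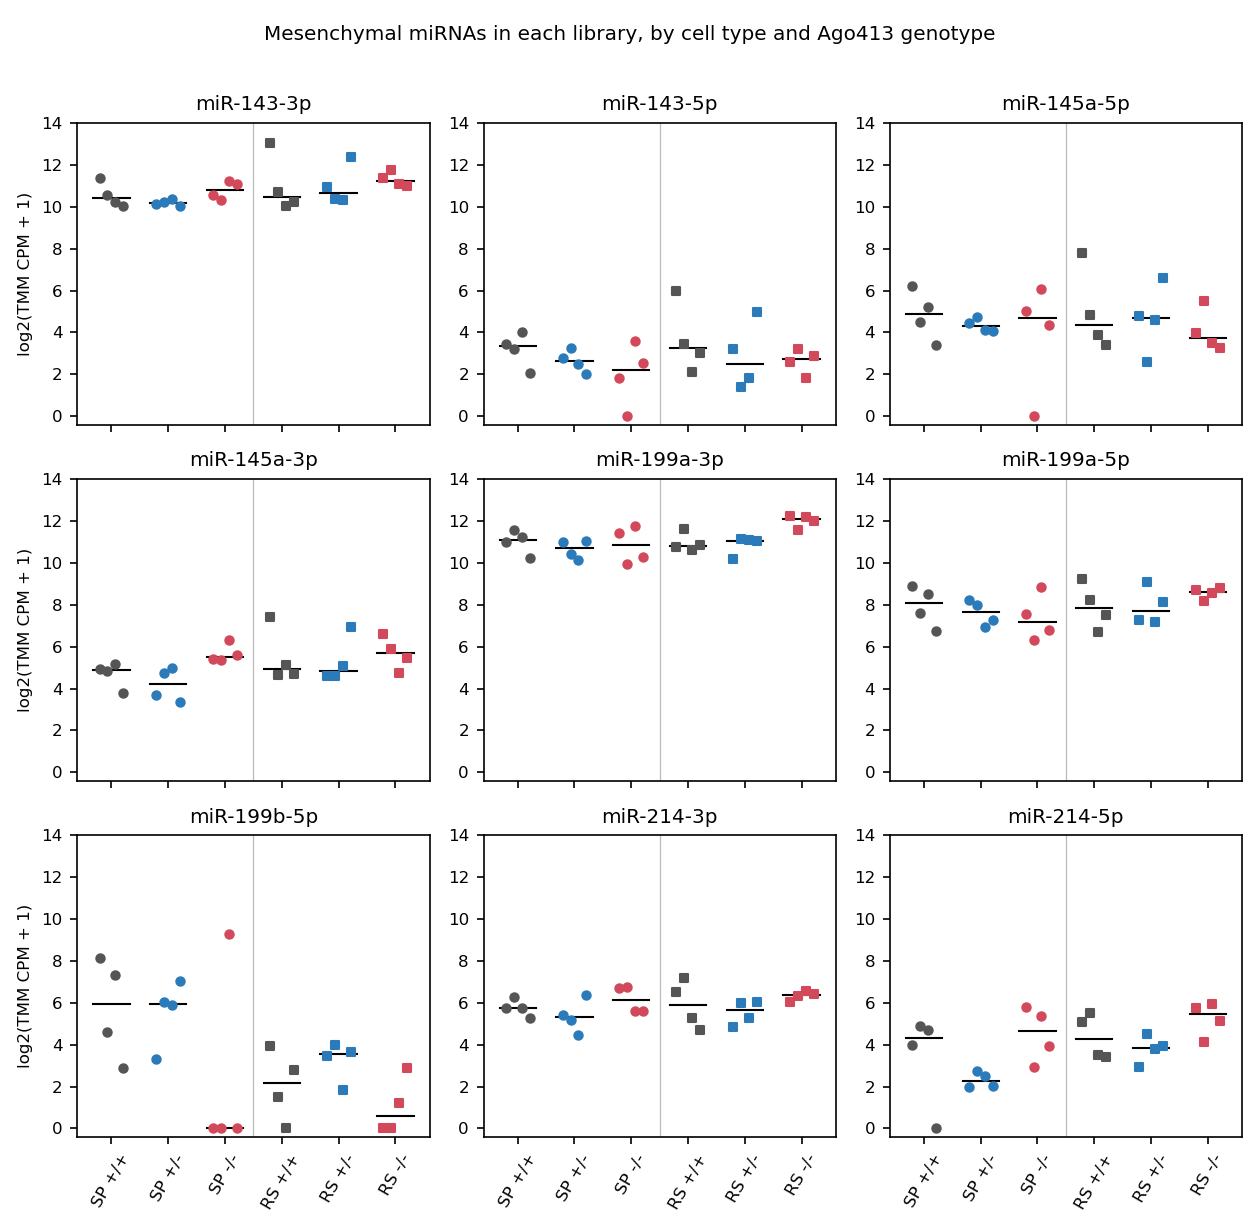
Level of 9 members in each library as log2(TMM CPM + 1), by cell type (circles SP, squares RS) and Ago413 genotype (grey +/+, blue +/-, red -/-), with replicates 1 to 4 from left to right and a line at the group median; miR-199b-3p, a fixed share of miR-199a-3p, is left out. The 4 RS Ago413-/- libraries sit together for miR-199a-3p (3040.0 to 4871 CPM), RS Ago413+/+ replicate 1 stands alone for the miR-143 and miR-145a arms (8335 CPM for miR-143-3p), and miR-199b-5p is spread widely in SP and low in RS.

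miR-143-3p, the guide strand of miR-143, was present at 1035 CPM or more in every library. In SP its levels for replicates 1 to 4 were 2633, 1531, 1215 and 1055 CPM in Ago413+/+, 1113, 1207, 1301 and 1035 CPM in Ago413+/-, and 1526, 1279.9, 2365 and 2142 CPM in Ago413-/-, and the 3 groups overlapped. In RS they were 8335, 1641, 1047 and 1200.0 CPM in Ago413+/+. The RS Ago413+/- libraries held 1998, 1311, 1297 and 5218 CPM, and the RS Ago413-/- libraries 2628, 3399, 2157 and 2023 CPM. One library of RS Ago413+/+ and one of RS Ago413+/- were thus far above their groups, while the other 3 RS Ago413+/+ libraries lay below all 4 RS Ago413-/- libraries.

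The miR-145a arms and the passenger strand miR-143-5p were high in the same libraries. miR-145a-5p, the guide strand of miR-145a, was at 220.0, 27.4, 13.5 and 9.6 CPM in the RS Ago413+/+ replicates, and miR-145a-3p at 167, 23.8, 33.9 and 25.2 CPM. In RS Ago413+/- they reached 97.6 and 123 CPM in replicate 4, against at most 26.4 and 32.9 CPM in the others. miR-143-5p was at 61.1 CPM in RS Ago413+/+ replicate 1, at 30.1 CPM in RS Ago413+/- replicate 4 and at 15.2 CPM or less elsewhere. Neither of these libraries was highest of its group for miR-199a-3p, which was at 1734 CPM in the first and 2080.3 CPM in the second. Mir143 and Mir145a lie 1301 bases apart on the minus strand of chromosome 18 (GRCm38.p6), with no other gene of the annotation over either.

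miR-199a-3p was the most abundant member. Its levels in SP were 2024, 3016, 2407 and 1188 CPM in Ago413+/+, 2006, 1362, 1139 and 2136 CPM in Ago413+/-, and 2755, 979.9, 3507 and 1227 CPM in Ago413-/-. In RS they were 1734, 3113, 1589 and 1824 CPM in Ago413+/+, 1158, 2273, 2145 and 2080.3 CPM in Ago413+/-, and 4871, 3040.0, 4606 and 4054 CPM in Ago413-/-. By mean and SD (n = 4) the RS groups stood at 2065 ± 706, 1914 ± 510.3 and 4143 ± 810.2 CPM, with the 3 SP groups between 1661 and 2159 CPM. Every RS Ago413-/- library was above every RS Ago413+/- library, and 3 of the 4 were above every RS Ago413+/+ library, since RS Ago413+/+ replicate 2 (3113 CPM) passed RS Ago413-/- replicate 2. The 5 groups other than RS Ago413-/- overlapped one another.

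The comparison of Ago413-/- with Ago413+/+ RS asks how miRNA levels differ when 3 Argonaute genes are lost. miR-199a-3p rose in RS Ago413-/- with a log2 fold change of 1.14 (SE 0.28, adjusted p = 0.00997, edgeR quasi-likelihood test), and miR-199b-3p, the same sequence, by 1.14 (adjusted p = 0.0110). A miRNA was called with an adjusted p under 0.05 and a log2 fold change of at least 1 in size. By this rule 2 of the 9 members tested were called, both of them rows of the one sequence, beside 69 of 426 miRNAs (16.2%) over the whole table, so the share of members called was near that of the table. The median log2 fold change of the 9 tested members was 0.19, against 0.13 for all 426. Counting rows whose Ago413-/- libraries all lay above the Ago413+/+ libraries, 0 of the 9 members and 35 of 426 miRNAs (8.22%) did so.

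The size of the rise of miR-199a-3p depended on the scaling. With library totals alone the log2 fold change was 0.91 (adjusted p = 0.0300, under the fold threshold), while the median of all miRNAs moved from 0.13 to -0.09 and the calls from 32 up and 37 down to 16 up and 52 down. Measured from that median, miR-199a-3p was 1.01 higher with TMM, 1.01 with RLE and 1.00 with library totals. A change of scaling moves all miRNAs of a comparison by nearly the same amount. This distance could therefore hardly differ, and it does not test the rise. The call was also lost with only the 2 groups in the fit (0.92), without a filter on low counts (0.90, where miR-143-5p at -1.98 and miR-145a-5p at -1.94 passed instead), and without RS Ago413+/+ replicate 1 (0.83, adjusted p = 0.0786), RS Ago413+/+ replicate 4 (0.95, 0.0512) or RS Ago413-/- replicate 1 (0.95, 0.0474). Over the 18 alternatives the log2 fold change ran from 0.83 to 1.27 and the adjusted p from 0.00345 to 0.0786. The other 7 members tested did not pass, with log2 fold changes from -1.78 (miR-143-5p, adjusted p = 0.183) and -1.74 (miR-145a-5p, 0.204) to 0.88 (miR-214-5p, 0.214). miR-143-3p gave -0.14 (SE 0.59, adjusted p = 0.887) with all libraries and 0.87 (0.172) without RS Ago413+/+ replicate 1, and miR-145a-3p gave -0.01 (0.996) and 0.96 (0.263). miR-145a-5p moved from -1.74 to -0.09 without that library.

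The libraries carry numbers in the count table that fall into 2 ranges, up to 60 and from 65, with 2 libraries of each genotype and cell type in each range for the null and wild-type groups. What the numbers stand for is not given. In the lower range the difference of miR-199a-3p between Ago413-/- and Ago413+/+ RS was 0.61 (SE 0.42, adjusted p = 0.408), and in the upper range 1.45 (SE 0.39, adjusted p = 0.00329). The upper range also gave 1.58 for miR-199a-5p (adjusted p = 0.00129), 1.65 for miR-214-3p (0.0138) and 2.39 for miR-214-5p (0.00443), where the lower range gave -0.41, -0.84 and -0.16 with adjusted p-values of 0.705, 0.318 and 0.909. The lower range holds RS Ago413+/+ replicates 1 and 2, and the difference between ranges was not tested.

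In SP, 0 of the 9 members tested were called between Ago413-/- and Ago413+/+, against 18 of 404 miRNAs (4.46%). The member with the lowest adjusted p was miR-145a-3p (log2 fold change 0.92, SE 0.45, adjusted p = 0.222, edgeR). Its levels were 29.9, 27.4, 35.1 and 12.7 CPM in Ago413+/+ and 41.7, 40.0, 77.9 and 48.1 CPM in Ago413-/-, so that all 4 null libraries were above all 4 wild-type ones. That held for 1 of the 9 members and for 29 of 404 miRNAs (7.18%). miR-199a-3p differed by -0.06 (SE 0.42, adjusted p = 0.935) and miR-143-3p by 0.17 (SE 0.33, 0.768). DESeq2 called 0 members and 61 of 404 miRNAs in this comparison. The difference of the null effect between the cell types was tested as an interaction, in which 0 of 10 members and 0 of 450 miRNAs (0%) passed with edgeR and with DESeq2, and 55 miRNAs had an unadjusted p under 0.05. For miR-199a-3p the interaction was 1.03 (SE 0.52, adjusted p = 0.406), so its rise in RS is not shown to differ from the change in SP.

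**Figure D2:**
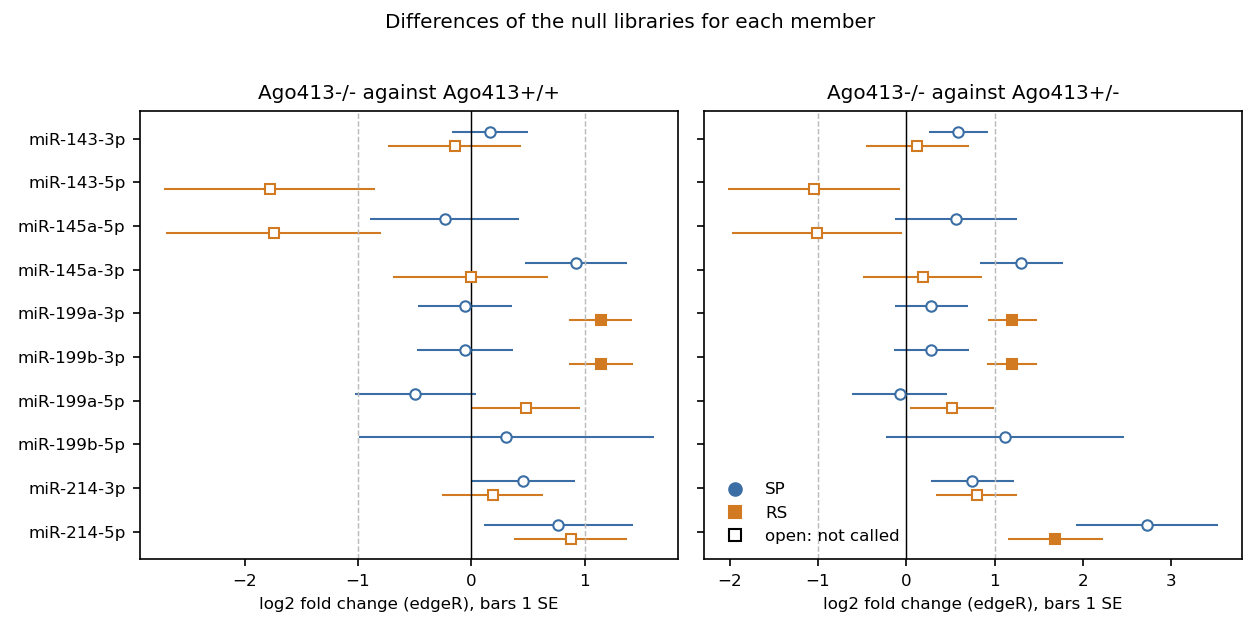
Log2 fold change (edgeR, bars 1 SE) of each member in Ago413-/- against Ago413+/+ (left) and against Ago413+/- (right), for SP (blue circles) and RS (orange squares), with filled marks for called differences and dashed lines at -1 and 1. miR-199a-3p and miR-199b-3p are filled in RS in both panels (1.14 and 1.20) and miR-214-5p in the right panel (1.69); miR-143-5p in SP and miR-199b-5p in RS did not reach the count needed for a test.

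The null RS libraries were also compared with Ago413+/-, and this comparison shares its 4 null libraries with the one against Ago413+/+. 3 of the 9 members tested were called, beside 53 of 426 miRNAs (12.4%), and all 3 rose: miR-199a-3p by 1.20 (SE 0.28, adjusted p = 0.00885), miR-199b-3p by 1.20 (adjusted p = 0.00977) and miR-214-5p by 1.69 (SE 0.54, adjusted p = 0.0389). As miR-199a-3p and miR-199b-3p are rows of the same sequence, their calls are a single measurement and the counts of members here include it more than once. The calls over the table were 22 up and 31 down with TMM and 3 up and 54 down with library totals, under which none of these members passed, at 0.95 for miR-199a-3p and 1.41 for miR-214-5p. Measured from the median of all miRNAs, miR-199a-3p was 1.07 higher with TMM and 1.05 with library totals, and miR-214-5p 1.56 and 1.51. That median moves with the scaling as the members do, so these distances do not test either rise. miR-199a-3p kept its call in 17 of 18 alternatives, with adjusted p-values from 0.00206 to 0.0461, and miR-214-5p in 9 of 17, from 0.0139 to 0.129. Rows whose null libraries were all above the Ago413+/- libraries were 3 of the 9 members (both miR-199 3p rows and miR-214-3p) and 36 of 426 miRNAs (8.45%).

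miR-214-5p, the passenger strand of miR-214, was a low-count miRNA throughout. Its RS levels were 32.6, 43.9, 10.2 and 9.6 CPM in Ago413+/+, 6.6, 21.7, 12.7 and 14.3 CPM in Ago413+/-, and 53.3, 16.7, 60.7 and 34.5 CPM in Ago413-/-. The null libraries reached higher than the others, and replicate 2 of the null fell within both other groups. In SP they were 15.0, 28.8, 24.6 and 0 CPM in Ago413+/+, 2.97, 5.68, 4.71 and 3.11 CPM in Ago413+/-, and 54.7, 6.67, 40.8 and 14.4 CPM in Ago413-/-. The SP Ago413+/- libraries held only 1 to 4 counts each. The SP difference of Ago413-/- from Ago413+/- was 2.72 (SE 0.80) and missed the threshold with an adjusted p of 0.0913. It passed with DESeq2, without a filter on low counts and without SP Ago413-/- replicate 2. In this comparison 0 of 9 members and 9 of 404 miRNAs (2.23%) were called, while miR-145a-3p and miR-214-5p were the 2 members of 9 without overlap between the groups, against 19 of 404 miRNAs (4.7%).

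miR-214-3p, the guide strand of miR-214, and miR-199a-5p did not pass in any comparison over all libraries. In RS, miR-214-3p was at 91.7, 144, 37.3 and 25.2 CPM in Ago413+/+, at 28.0, 61.9, 38.0 and 64.6 CPM in Ago413+/- and at 64.9, 78, 91.7 and 84.1 CPM in Ago413-/-. Its null libraries had the lowest SD of the 3 RS groups (79.7 ± 11.3 CPM, SD, n = 4, against 74.6 ± 54.8 in Ago413+/+). miR-199a-5p was at 601, 293, 102 and 181 CPM in RS Ago413+/+ and at 416, 287, 371 and 446 CPM in RS Ago413-/-. Its means were 294 and 380.0 CPM with SDs of 219 and 69.4 CPM. The difference in spread was not tested for either.

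Between Ago413+/- and Ago413+/+, 0 of the 9 members tested were called in SP and 0 of 9 in RS, as were 0 of 404 (0%) and 0 of 426 miRNAs (0%). Unadjusted p-values under 0.05 were held by 13 and 68 miRNAs, and DESeq2 called 0 and 8. In SP, miR-214-5p had the farthest value from 0 (log2 fold change -1.96, SE 0.79, adjusted p = 1.00), on 1 to 4 counts in the Ago413+/- libraries. In RS the member differences ran from -0.81 (miR-214-5p) to -0.03 (miR-199a-5p), with adjusted p-values of 0.479 and more.

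The SP and RS libraries with the same genotype and replicate number carried neighbouring numbers in the count table in 11 of 12 cases, and whether such libraries came from one suspension is not given. Between the cell types, 0 of 10 members were called in Ago413+/+ and 0 of 10 in Ago413+/-, and neither were any of 450 miRNAs (0% each), with 10 and 15 at an unadjusted p under 0.05 and 0 and 0 called by DESeq2. In Ago413+/+, miR-199a-3p differed between RS and SP by -0.06 (SE 0.36) and miR-143-3p by 0.93 (SE 0.52), both with an adjusted p of 0.996. In Ago413+/-, miR-214-5p was higher in every RS library than in every SP library (1.62, SE 0.79, adjusted p = 0.988), 1 of 10 members against 10 of 450 miRNAs (2.22%). In Ago413-/-, 1 of 10 members was called, miR-199b-5p, beside 22 of 450 miRNAs (4.89%). miR-199a-3p gave 0.97 there (SE 0.37, adjusted p = 0.0966).

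miR-199b-5p, the arm that reads the Mir199b locus, had the most uneven values of the 10. In SP its levels were 278, 23.3, 157 and 6.35 CPM in Ago413+/+ and 8.9, 63.9, 58.8 and 131 CPM in Ago413+/-. In SP Ago413-/- replicate 3 it was at 615 CPM (166 counts), and the other 3 libraries of that group had 0 counts. In RS its highest level in any of the 12 libraries was 15.1 CPM, and no RS library held more than 9 counts. The fall in Ago413-/- RS against SP (-6.24, SE 1.61, adjusted p = 0.0281) thus rested on 1 library, and without it the difference was 3.15 with an adjusted p of 0.593. In the other genotypes the same contrast gave -4.37 in Ago413+/+ (SE 1.37, adjusted p = 0.823) and -2.66 in Ago413+/- (SE 1.28, adjusted p = 0.988). Without a filter on low counts, miR-199b-5p was called in all 3 genotypes.

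The balance of arms within a hairpin was compared because it does not depend on how libraries were scaled. Log2 ratios of counts, with 0.5 added, were compared between Ago413-/- and Ago413+/+ for 5 ratios in 2 cell types by two-sided exact permutation tests. With 4 libraries a side the lowest p that can be reached is 0.0286, which becomes 0.286 for a ratio that reaches it alone among the 10. A single ratio therefore could not pass, however far apart its groups lay, and 0 of the 10 passed after adjustment. The ratio of miR-143-5p to miR-143-3p in RS was -7.07, -7.29, -7.69 and -7.27 in Ago413+/+ and -8.82, -8.45, -9.38 and -8.07 in Ago413-/-. The groups lay apart, with a difference of -1.35 (exact permutation p = 0.0286, adjusted p = 0.286). The passenger strand had only 1 to 30 counts in RS libraries, 2 or 3 in each null library, and in SP the difference turned from -0.88 to 0.26 when 5 was added in place of 0.5.

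For miR-145a the 2 arms had similar counts. The log2 ratio of 3p to 5p was above 0 in all 8 null libraries and in 4 of 8 wild-type ones, and the groups overlapped. It was -1.27, 0.31, -0.05 and 0.36 in SP Ago413+/+ and 0.40, 3.70, 0.22 and 1.22 in SP Ago413-/-, a difference of 1.54 (exact permutation p = 0.114). In RS the difference was 1.12 (exact permutation p = 0.143), and both had an adjusted p of 0.286. The value of 3.70 comes from a library with 6 counts of miR-145a-3p and 0 of miR-145a-5p. The ratio of miR-199-5p (a and b summed) to miR-199-3p had differences of -0.45 in SP and -0.41 in RS, and that of miR-214-5p to miR-214-3p 0.68 and 0.49, all with adjusted p-values of 0.449 or more. miR-199b-5p over miR-199a-5p averaged -2.20 in SP Ago413+/+ and -5.76 in RS Ago413+/+, and the null differences were -2.03 and -1.78 (adjusted p = 0.449 and 0.286, exact permutation tests).

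**Figure D3:**
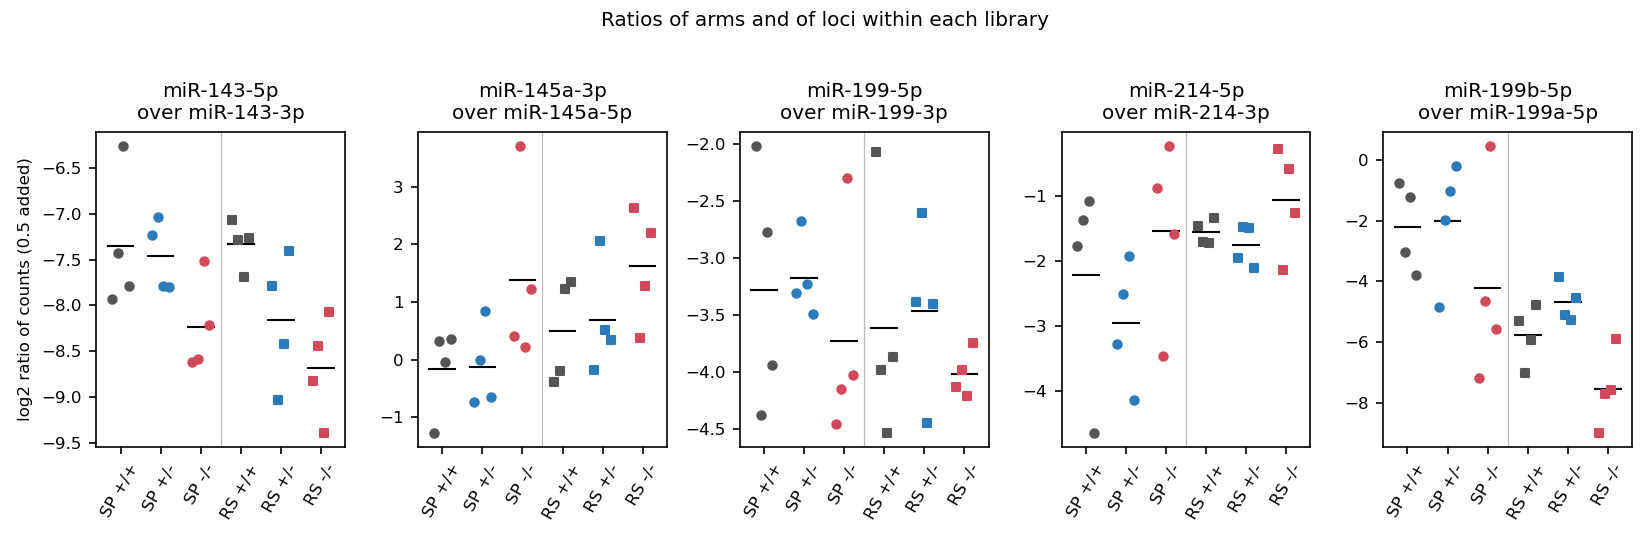
Log2 ratio of counts (0.5 added to each) between the arms of 4 hairpins, and between miR-199b-5p and miR-199a-5p, in each library, by cell type (circles SP, squares RS) and Ago413 genotype (grey +/+, blue +/-, red -/-), with a line at the group mean. RS Ago413-/- lies below RS Ago413+/+ for miR-143-5p over miR-143-3p (means -8.68 and -7.33), and the other ratios overlap between null and wild type.

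Pairs of members with hairpins at one locus, and a pair from different loci, were compared over the 24 libraries, and differences between these correlations were not tested. For miR-199a-3p and miR-214-3p only Mir199a-2 lies with Mir214, while Mir199a-1 and Mir199b can give the same 3p sequence from other chromosomes. On log2(CPM + 1), the correlation of miR-143-3p with miR-145a-3p was 0.82 (Pearson's r) and 0.67 (Spearman's rho). The permutation p was 1e-05, the smallest that 100000 resamples can give, and 0.00046. Adjusted over the Pearson and Spearman tests of 4 relations together, these became 8e-05 and 0.00184. Without the 2 libraries farthest from the median of miR-143-3p, r was 0.66, and it was 0.70 within SP, 0.86 within RS, 0.82 in library numbers up to 60 and 0.83 from 65. For miR-143-3p and miR-145a-5p, r was 0.65 and rho 0.53 (permutation p = 0.00087 and 0.00832, adjusted 0.00232 and 0.0161), and r was 0.39 without the 2 farthest libraries, 0.49 within SP, 0.84 within RS, and 0.66 and 0.64 in the lower and upper library numbers. The rank correlation of deviations from the group means was 0.78 for this pair and 0.69 for miR-143-3p and miR-145a-3p. It was 0.44 for miR-199a-3p and miR-214-3p, and -0.02 for miR-199a-3p and miR-143-3p. miR-199a-3p and miR-214-3p gave r of 0.51 and rho of 0.52 (permutation p = 0.0122 and 0.010, adjusted 0.0162 and 0.0161), r of 0.49 without 2 libraries, 0.33 within SP, 0.64 within RS, and 0.46 and 0.65 in the lower and upper library numbers. Between the loci, miR-199a-3p and miR-143-3p gave r of 0.25 and rho of 0.39 (permutation p = 0.243 and 0.0592, adjusted 0.243 and 0.0677), and r of 0.19 without 2 libraries, 0.31 within SP, 0.06 within RS, and 0.21 and 0.33 in the lower and upper library numbers. The libraries share mice, depth and scaling in ways that are not known.

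Over the 24 libraries the 5 miRNAs outside the members whose levels ran most like the sum of the members were, by Spearman correlation, miR-181a-5p (0.85), miR-203-3p (0.81), miR-378c (0.79), miR-6546-5p (0.78) and miR-378d (0.74). The same correlations over deviations from the group means were 0.79, 0.72, 0.67, 0.65 and 0.44. miR-378c, miR-6546-5p and miR-378d had mean levels of 13.9 to 23.1 CPM, near the level of a few counts in the smaller libraries.

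Markers of other cells were read beside the members in the same RS comparison, Ago413-/- against Ago413+/+, in which 16.2% of all miRNAs were called. Of the endothelial pair, miR-126a-3p rose by 1.63 (adjusted p = 0.0120), 1 of 2. Of 3 blood miRNAs 2 could be tested and both rose, miR-451a of red cells by 3.26 (adjusted p = 0.0299) and miR-486a-5p by 2.11 (0.0305). Of 5 leukocyte miRNAs 2 rose, miR-142a-5p by 1.18 (adjusted p = 0.0122) and miR-223-3p by 2.65 (0.00997). The level of miR-223-3p was near the floor, with at most 28 counts, 0 counts in 7 libraries and a mean of 2.20 CPM in RS Ago413+/+. Of the 2 arms of miR-202, listed as gonadal somatic, miR-202-5p rose by 1.53 (adjusted p = 0.00976, edgeR). Which cells held miR-202 was not tested. Of 10 further mesenchymal miRNAs, 0 passed and the median log2 fold change was 0.37, against 0.13 over all miRNAs. 0 of 3 spermatogonial, 0 of 7 meiotic germ cell and 0 of 1 testable striated muscle miRNAs passed. An adjusted p under 0.05 with a fold under the threshold was found for 5 miRNAs of these lists, the mesenchymal miR-22-3p (0.59, adjusted p = 0.0422), the spermatogonial miR-21a-5p (0.66, 0.0306) and the germ cell miR-449a-5p (0.98, 0.0110), miR-881-3p (0.81, 0.0299) and miR-871-3p (-0.91, 0.0130). In SP, 0 miRNAs of these lists passed. Against Ago413+/- in RS, with the same null libraries, 1 of 2 endothelial, 1 of 5 leukocyte, 1 of 2 gonadal somatic, 1 of 7 meiotic germ cell and 1 of 10 further mesenchymal miRNAs rose, and 0 of 2 blood, 0 of 3 spermatogonial and 0 of 1 striated muscle ones, beside 12.4% of all miRNAs called.

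The summed levels show which libraries carried these markers. In RS, miR-126a summed to 511 to 1989.9 CPM in Ago413+/+ and 1951 to 5858 CPM in Ago413-/-, and miR-202 to 2499.8 to 8176 CPM and 9034 to 15979 CPM. The null libraries were thus all above the wild-type ones for miR-202 and nearly so for miR-126a. The leukocyte list summed to 213.9 to 419 CPM and 487 to 645 CPM, the blood list to 49.2 to 501 CPM and 103 to 4813 CPM, and the other mesenchymal list to 24006 to 40585 CPM and 30874 to 44117 CPM. In RS Ago413+/- the leukocyte list summed to 418.9 to 588.9 CPM, also above the Ago413+/+ maximum of 418.8 CPM, and the blood list to 179 to 1155 CPM. There miR-126a summed to 858 to 1159.7 CPM, miR-202 to 2799.5 to 8405 CPM and the other mesenchymal list to 18760 to 28367 CPM. The highest blood value was that of RS Ago413-/- replicate 4, while replicates 1 to 3 of that group held 511, 103 and 612 CPM. Whether the blood miRNAs would be called without replicate 4 was not tested. RS Ago413+/+ replicate 1, highest for miR-143 and miR-145a, stood at 697 CPM for miR-126a and 4535 CPM for miR-202, within its group. The meiotic germ cell miRNAs, which name the cells on the labels, summed to 204237 to 378732 CPM over the 24 libraries and so were far above the members in each, at 2986 to 12122 CPM. Of the striated muscle list, miR-206-3p was at 0 in 19 libraries and miR-133a-3p in 8, and of the blood list miR-144-3p was at 0 in 12. What part these other cells have in the rise of miR-199a-3p was not tested.

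**Figure D4:**
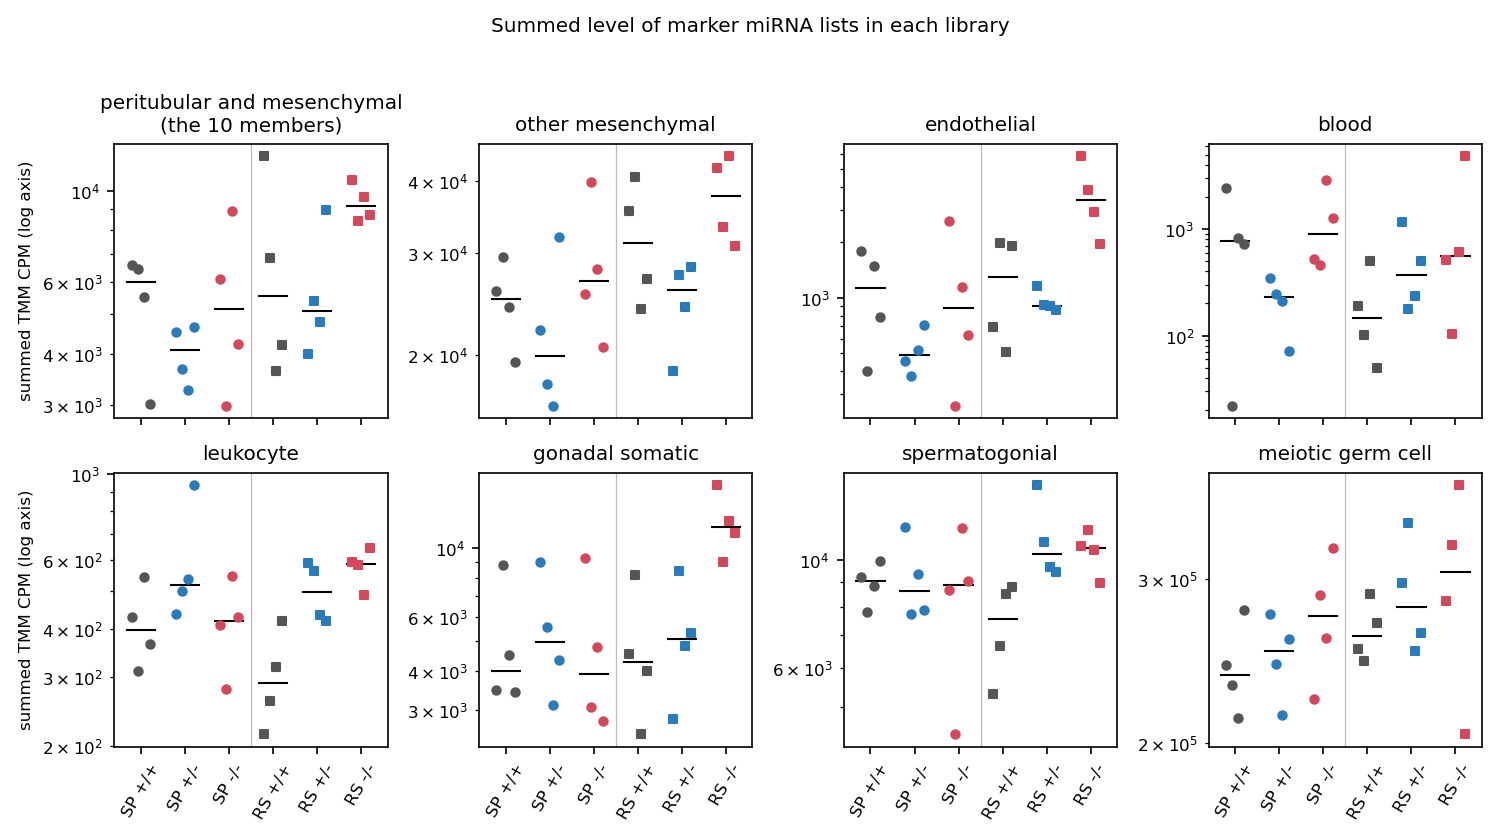
Summed level (TMM CPM, log axis that differs between panels) of the 10 members and of 7 other marker lists in each library, by cell type (circles SP, squares RS) and Ago413 genotype (grey +/+, blue +/-, red -/-), with a line at the group median. The RS Ago413-/- median is the highest of the 3 RS groups in all 8 panels, those of the germ cells included: 9179 CPM against 5527 in Ago413+/+ for the members, 3389.6 against 1299 for the endothelial list, 10561 against 7572 for the spermatogonial list and 304948 against 260862 for the meiotic germ cell list. For the spermatogonial list the RS Ago413+/- median was 10276 CPM, and its mean (11047 CPM) was above that of RS Ago413-/- (10395 CPM).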

How the data were processed

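Per the study's methods, the authors trimmed reads with Trim Galore, removed reads under 10 nt, and used miRDeep2 to count reads against miRBase 22.1. The deposited table holds raw counts of 1978 miRNAs in 24 libraries, with 754 at 0 in every library, no scaling and no summing of families, and 0 of its columns were left out. Groups and replicates came from the sample labels. Nothing says that replicates came from separate suspensions, so p-values measure the spread between these libraries.

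Counts were fitted with edgeR 4.0.16 (R 4.3.3; TMM, quasi-likelihood) over the 12 libraries of a cell type for genotypes and over all 24 for cell types and the interaction, without covariates, keeping miRNAs that reached 10 counts in 3 or more libraries of the fit. Adjusted p-values (Benjamini-Hochberg) cover every miRNA of a fit. No fold threshold was set for the interaction. The scripts were tested on simulated data. Replicates differed by far more than counting noise (chi-square over its degrees of freedom 23.5 to 270.0 in 36 pairs). The limit that a count of 0 allows reflects counting error alone, as no molecular identifiers mark copies made by PCR. Alternatives were DESeq2 1.42.0, RLE scaling, library totals, other filters, a term for library numbers, replicate numbers and leaving out libraries. Where miR-199a-3p and miR-199b-3p entered an arm ratio, they were summed.

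The rule for naming took all 10 members, at most the 3 most abundant called miRNAs of a marker list, and the 5 miRNAs most correlated with the members' sum (SciPy 1.17.1 for permutation tests). Marker miRNAs named without a call were chosen after their values were seen. The members and lists were chosen with earlier results of these data known. Sequences and coordinates are from RefSeq, GRCm38.p6, and neighbouring genes from GENCODE of the same build.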

Additional observations from a re-analysis of the deposited data

Results flagged for a closer look

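Of 90 groups of 4 libraries tested for a library set far from the others (Dixon's test, critical value 0.829), 8 held one. Chance would give about 4.5 if groups were normal and independent. CPM values need not be normal, and some rows share a sequence or a locus, so 8 against 4.5 does not measure an excess. RS Ago413+/+ replicate 1 stood above its group for 4 members of one locus: 8335 CPM against at most 1641 CPM for miR-143-3p, 61.1 against 10.1 CPM for miR-143-5p, 220.0 against 27.4 CPM for miR-145a-5p, and 167 against 33.9 CPM for miR-145a-3p. RS Ago413+/- replicate 4 stood above its group for miR-145a-3p (123 against 32.9 CPM). RS Ago413+/+ replicate 2 was set apart for miR-199a-3p (3113 against 1824 CPM) and for miR-199b-3p (1557 against 909.6 CPM), which are one measurement. SP Ago413-/- replicate 3 held 615 CPM of miR-199b-5p, and the other 3 libraries of its group held 0.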

How the results depend on the processing

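Depth limits the passenger strands, miR-145a and miR-199b-5p, whose counts were mostly under 50. For Ago413-/- against Ago413+/+ RS (2 called), 0 were called with library totals alone, 0 with only the groups compared and 1 with miR-199b-3p left out of the table, an alternative chosen after seeing the data. For Ago413-/- against Ago413+/- RS (3 called), 0 were called with library totals alone, 4 with no filter on low counts (miR-199b-5p added), and 2 with at least 10 counts in every library, with the replicate block or with miR-199b-3p left out. For Ago413-/- against Ago413+/- SP (0 called), 1 was called with DESeq2 and 1 with no filter on low counts. For RS against SP, no filter gave 1 in Ago413+/+ and 1 in Ago413+/- where 0 were called, and Ago413-/- (1 called) gave 2 with at least 10 counts in every library, 0 with the replicate block and 0 with only the groups compared. Leaving out single libraries gave 0 to 1 for Ago413-/- against Ago413+/+ SP (1, miR-199b-5p, without SP Ago413-/- replicate 3), 0 to 1 for Ago413-/- against Ago413+/- SP (1, miR-214-5p, without SP Ago413-/- replicate 2), 0 to 2 for Ago413-/- against Ago413+/+ RS, 2 to 3 for Ago413-/- against Ago413+/- RS (2, miR-214-5p lost, without 6 of the 8 libraries in turn) and 0 to 1 for RS against SP in Ago413-/- (0 without 6 of the 8 libraries in turn). Over all miRNAs, the 18 calls of Ago413-/- against Ago413+/+ SP became 61 with DESeq2 and 55 without a filter, the 9 of Ago413-/- against Ago413+/- SP 57, 40 and, with only the groups compared, 4, the 22 of RS against SP in Ago413-/- 37, 43 and 2, and the 69 of Ago413-/- against Ago413+/+ RS 42 with at least 10 counts in every library. The 53 of Ago413-/- against Ago413+/- RS became 35 with that filter and 81 by adjusted p alone. Without single libraries, calls over all miRNAs ran from 31 to 65 there, from 5 to 57 for Ago413-/- against Ago413+/- SP, from 11 to 19 for Ago413-/- against Ago413+/+ SP and from 1 to 62 for RS against SP in Ago413-/-. The causes of these moves were not tested.

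Reversals of sign were in values that had not passed, apart from miR-199b-5p in RS against SP of Ago413-/-. For Ago413-/- against Ago413+/+ SP, miR-143-3p (0.17) gave -0.042 with library totals and -0.0028 with at least 10 counts in every library, miR-199b-5p (0.31) gave -0.75 with a term for library numbers and -1.23 with the replicate block, and with only the groups compared miR-199a-3p gave 0.0091 and miR-199b-3p 0.0104. For RS, miR-214-3p (0.19) gave -0.050 with library totals, -0.066 without a filter and -0.043 with only the groups compared, and miR-145a-3p (-0.01) gave 0.012 with the term for library numbers and 0.22 with the replicate block, under which miR-143-3p (-0.14) gave 0.36. The ratio of miR-143-5p to miR-143-3p in SP gave 0.26 with 5 added. Without single libraries the ranges were, in SP, -0.053 to 0.41 (miR-143-3p), -0.87 to 0.27 (miR-145a-5p), -0.36 to 0.19 (miR-199a-3p), -0.36 to 0.19 (miR-199b-3p) and -8.72 to 1.10 (miR-199b-5p). In RS they were -0.53 to 0.87 (miR-143-3p), -0.53 to 0.96 (miR-145a-3p) and -0.26 to 0.61 (miR-214-3p), and for miR-199b-5p in RS against SP of Ago413-/- -7.61 to 3.15. Arm ratios that turned were miR-214-5p over miR-214-3p in SP (-0.13 to 1.32) and miR-199-5p over miR-199-3p in RS (-0.71 to 0.11).

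Replicate numbers were not taken as pairs, since nothing in the labels ties them to shared samples, neighbouring library numbers included. Between same-numbered SP and RS libraries of one genotype, the correlation of deviations from group means ran from -0.19 to 0.42. Between same-numbered libraries of different genotypes and one cell type it ran from -0.33 to 0.34. These values do not settle whether SP and RS libraries are paired. With the replicate block, Ago413-/- against Ago413+/+ RS gave 62 calls in place of 69, and miR-214-5p in Ago413-/- against Ago413+/- RS had an adjusted p of 0.0711 (edgeR). In RS against SP of Ago413-/- the block, here the replicate within its genotype, gave -5.55 for miR-199b-5p with an adjusted p of 0.0793. For the arm ratios, the block gave 0 past the threshold, which 4 pairs cannot pass.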
